A study of Mus musculus with 2 samples.

Results

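The genes described here encode proteins that carry a cell through mitosis and cytokinesis, and they were followed in the heart of the newborn mouse. They are 38 genes chosen by name from a list of mitotic regulators, kinetochore, spindle and cytokinesis proteins, and all 38 were found among the 43346 genes of the deposited tables. By role they comprised 9 genes of mitotic entry, 9 of the kinetochore and spindle checkpoint, 4 of the chromosomal passenger complex, 4 of spindle motors and assembly, 7 of cytokinesis, 3 of anaphase onset and exit, and 2 of chromosome structure and periphery. RNA came from whole hearts of healthy mice of strain B6NTac;B6NCrl/Lap at postnatal day 0, pooled over males and females, with no treatment or allele named. The design has 1 group with 2 biological replicates. Replicate 2 was a pool of an unstated number of mice and replicate 1 a pool of 15, and both carried the same donor label. Each library was made from total RNA longer than 200 nucleotides after ribosomal RNA depletion, with spike-in RNA added, and was read as stranded pairs. Pooling hides the spread between animals, and a group of this size with no second condition allows no test, so every comparison is a description of 2 libraries.

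Entry into mitosis is driven by the kinase Cdk1 bound to A and B cyclins, with Cdc25 phosphatases removing the inhibitory phosphates from Cdk1. Chromosomes then attach to the spindle through kinetochores, the spindle checkpoint holds back anaphase until attachment is complete, and the anaphase-promoting complex with its activator Cdc20 ends the arrest by marking cyclin B and securin for destruction. Around birth, mouse heart muscle cells undergo their last rounds of DNA synthesis and nuclear division, often without completing cytokinesis, which leaves many of them binucleate, while fibroblasts and endothelial cells of the heart go on dividing. In RNA from whole hearts, fewer cells of a type and less RNA per cell cannot be told apart.

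Many genes of late cell cycle carry a pair of promoter elements, the CHR, with the letters TTTGAA, bound by the DREAM and MuvB complexes, and the CCAAT box, bound by the factor NF-Y. RefSeq promoters of 300 bases on GRCm38.p6, 250 before and 50 after the start that RefSeq annotates, were matched for 31 of the 38 members, with 2 entries each for Ect2 and Prc1. A few are shown by their 130 bases just before the start, 5′ to 3′ on the gene's strand, with both motifs in capitals in either orientation (TTTGAA or TTCAAA for the CHR, CCAAT or ATTGG for the CCAAT box). They are a gene each for entry, activation and ubiquitin transfer in anaphase, the midzone and the spindle, and Mad2l1 for a checkpoint gene with neither motif. Cdk1 lies on the minus strand at chr10:69352913-69353042, Cdc20 on the minus strand at chr4:118437344-118437473 and Ube2c on the plus strand at chr2:164769799-164769928. Prc1 is on the plus strand at chr7:80294346-80294475, Kif11 on the plus strand at chr19:37376252-37376381 and Mad2l1 on the plus strand at chr6:66535091-66535220.
Cdk1: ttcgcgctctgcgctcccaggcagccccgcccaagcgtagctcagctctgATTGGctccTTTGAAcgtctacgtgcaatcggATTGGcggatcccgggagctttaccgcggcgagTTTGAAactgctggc
Cdc20: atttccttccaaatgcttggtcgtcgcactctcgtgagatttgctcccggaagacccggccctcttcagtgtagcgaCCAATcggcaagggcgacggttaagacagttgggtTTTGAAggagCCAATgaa
Ube2c: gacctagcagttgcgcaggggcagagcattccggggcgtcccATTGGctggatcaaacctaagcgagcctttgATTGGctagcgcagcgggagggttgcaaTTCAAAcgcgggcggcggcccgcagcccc
Prc1: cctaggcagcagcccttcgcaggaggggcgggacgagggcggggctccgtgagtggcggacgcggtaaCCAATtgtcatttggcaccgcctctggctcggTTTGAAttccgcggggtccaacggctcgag
Kif11: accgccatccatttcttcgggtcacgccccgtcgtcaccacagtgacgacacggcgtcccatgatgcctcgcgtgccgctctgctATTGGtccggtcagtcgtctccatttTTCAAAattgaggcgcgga
Mad2l1: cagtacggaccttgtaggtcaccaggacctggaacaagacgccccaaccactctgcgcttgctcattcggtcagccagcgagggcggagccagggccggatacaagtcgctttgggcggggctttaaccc

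In the Cdk1 window 2 CHR and 2 CCAAT matches are seen, the nearer CHR beginning 15 bases before the start. The Cdc20 window has 1 CHR between 2 CCAAT matches. Ube2c, Prc1 and Kif11 have the CHR nearer to the start than each CCAAT match of the window, and Mad2l1 has neither motif. Over the 300 bases, 23 of the 31 members (74.2%) held a CHR, beside 20.2% of 27025 genes with a promoter entry, and 24 (77.4%) held a CCAAT box, beside 41.1%. Both stood in 20 members (64.5%), beside 7.97% of all genes, and neither in 4 (12.9%; Mad2l1, Nuf2, Birc5 and Nusap1), beside 47.7%. Both motifs were in 3 of 3 genes of anaphase onset and exit with an entry, 2 of 2 of chromosome structure, 5 of 6 of cytokinesis, 4 of 6 of mitotic entry, 1 of 2 of the chromosomal passenger complex, 4 of 9 of the kinetochore and checkpoint and 1 of 3 of spindle motors and assembly.

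**Figure D1:**
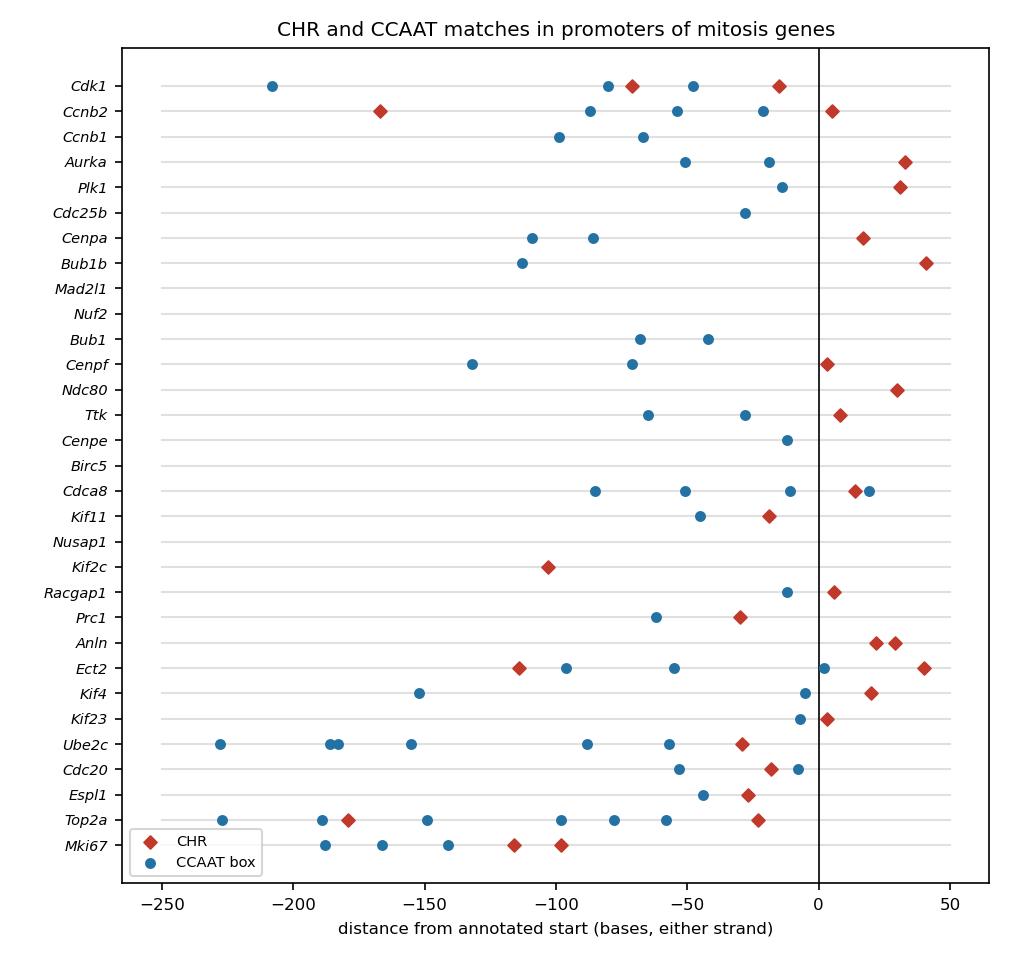
Distance of each CHR and CCAAT match from the annotated start, in bases, for members with a matched promoter, 1 row a gene. Most rows with a CHR have one within 50 bases of the start, and Mad2l1, Nuf2, Birc5 and Nusap1 have no match of either motif.

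The total of expected counts was 75105452 for replicate 2 and 71186117 for replicate 1. Levels are in TPM, an abundance per length relative to all entries of the library, and counts are expected fragments. Heart muscle markers were all detected, with 10 of 10 above 1 TPM in both libraries led by Myl2, and a summed level of 9935 TPM in replicate 2 and 8944 TPM in replicate 1. The libraries differed in some cell type markers. The 14 lymphocyte and thymus markers summed to 0.57 TPM in replicate 2 and 9.73 TPM in replicate 1, where Cd3e and Dntt had 0 counts in both and 11 markers had fewer counts in replicate 2. The 7 smooth muscle and pericyte markers summed to 681 TPM in replicate 2 and 340 TPM in replicate 1. The 6 urothelial markers summed to 82.8 TPM in replicate 2 and 5.41 TPM in replicate 1, with Krt20 at 0 counts in both. The 8 fibroblast markers, led by Col3a1, summed to 647 TPM in replicate 2 and 511 TPM in replicate 1, and the 8 endothelial markers, led by Egfl7, to 264 TPM in replicate 2 and 274 TPM in replicate 1.

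The module was expressed at a moderate level. Of its 38 genes, 36 reached 1 TPM in both replicates, beside 47.1% of 21474 protein-coding genes, and the others were the checkpoint kinase gene Ttk and the kinetochore motor gene Cenpe. The median member had 6.81 TPM in replicate 2 and 8.83 TPM in replicate 1, beside 6.49 TPM in replicate 2 and 6.27 TPM in replicate 1 for the 11594 genes whose mean was at least 1 TPM. Ube2c, which encodes the ubiquitin-conjugating enzyme that starts chains for the anaphase-promoting complex, had the highest mean of the 38, 64.8 ± 26.4 TPM (SD, n = 2), at percentile 94.0 of the 10112 protein-coding genes detected in both. Ccna2, cyclin A2, followed at 59.8 ± 20.2 TPM, then Cdk1 at 36.9 ± 18.2, the activator gene Cdc20 at 30.5 ± 13.8 and Ccnb2, cyclin B2, at 25.1 ± 11.5 (SD, n = 2 each). At the low end stood Ndc80 at 1.88 ± 0.276 TPM, Ttk at 1.31 ± 0.559 and Cenpe at 0.71 ± 0.0707 (SD, n = 2 each). The order should be read coarsely, since only 1 of the 37 pairs of neighbours in it, Ttk above Cenpe, had both values of one gene above both values of the other. The ranks of the 38 genes were close between the libraries, with a Spearman coefficient of 0.958 across genes, which share the same libraries and are not replicates.

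**Figure D2:**
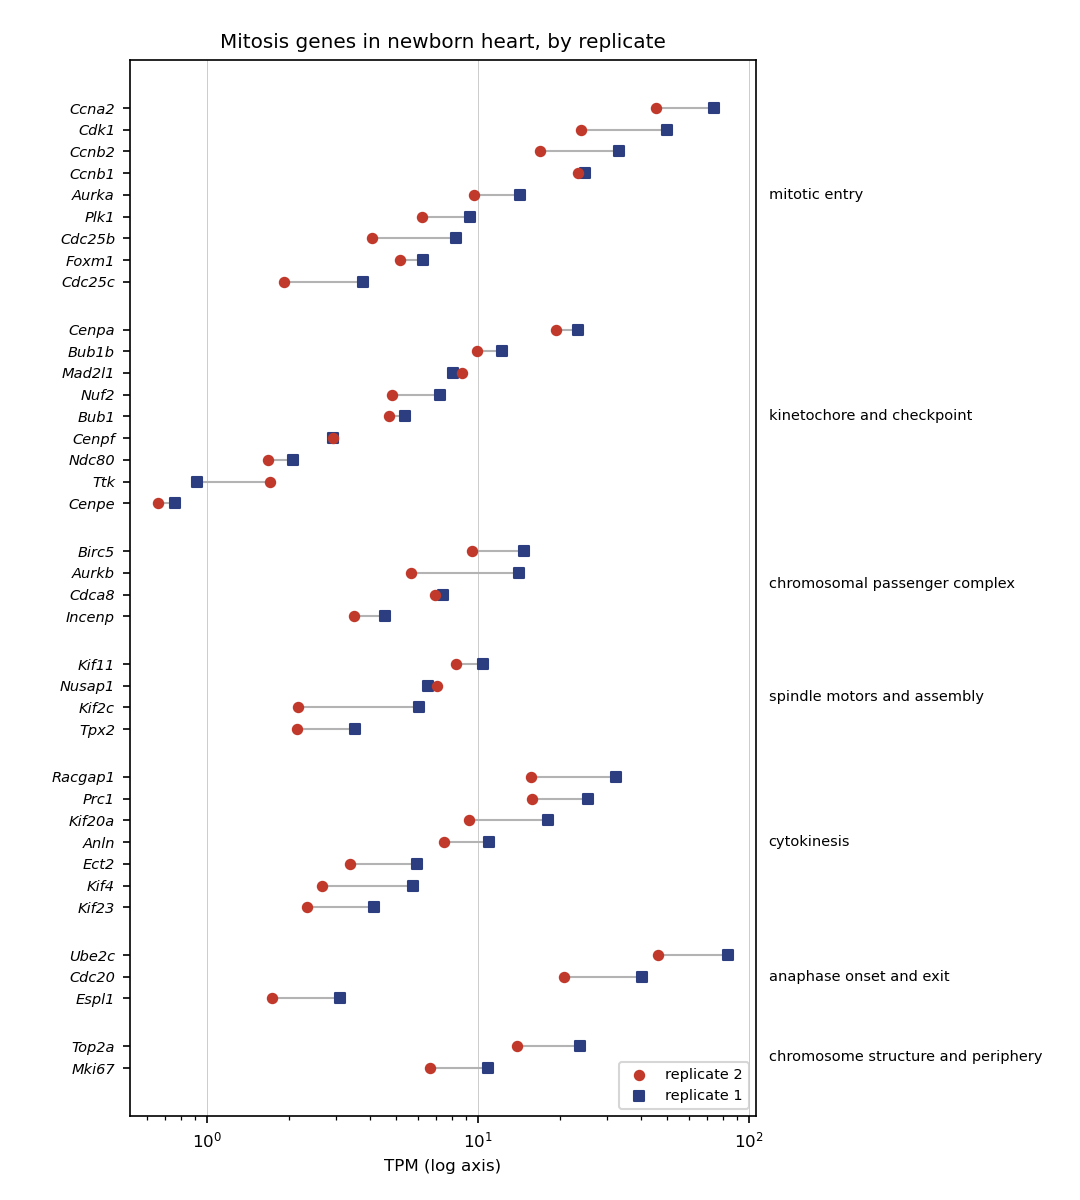
Level of the 38 genes in TPM on a log axis, 1 row a gene in role groups, with 1 point for replicate 2 and 1 for replicate 1. Ube2c, Ccna2 and Cdk1 stand highest, and most replicate 2 points lie left of the replicate 1 point of the same gene.

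The level of most members was lower in replicate 2. Their TPM summed to 383 in replicate 2 and 619 in replicate 1, a ratio of 0.618, or 0.0383% and 0.0619% of all TPM in replicates 2 and 1. Differences are given as log2 of replicate 2 over replicate 1 with 0.1 TPM added, and the median over the 11594 genes of at least 1 TPM was set to 0. The median difference of the 38 genes was -0.68, with a range of -1.47 to 0.81, beside a median of 0 over those 11594 genes by the centring. By sign, 35 genes were lower and 3 higher in replicate 2, and the same numbers came from counts scaled to the total of gene counts (CPM), which are not divided by length. At least 2-fold lower in replicate 2 were 6 members (Cdk1, Cdc25b, Aurkb, Kif2c, Racgap1 and Kif4), beside 8.90% of the 11594 genes. At least 2-fold higher were 0 members, beside 10.1% of those genes. In CPM, 5 members were at least 2-fold lower (Cdc25b, Aurkb, Kif2c, Ect2 and Kif4), beside 6.69%, and 1 was higher (Ttk), beside 7.83%. The difference of each member was under 2.15 in size, the 95th percentile of absolute differences over the 11594 genes. Most members were thus lower in replicate 2 by less than 2-fold. With spike-in RNA in place of genes as the centre, which moves the median of all genes by -0.27, 15 members were at least 2-fold lower. That centre lowers every gene alike, and the share of all genes called under it was not counted. The 15 can therefore not be set beside 8.90%. With a pseudocount of 1 TPM, 4 members were at least 2-fold lower. The share of all genes was not counted at that pseudocount either, so the 4 cannot be set beside 8.90%.

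**Figure D3:**
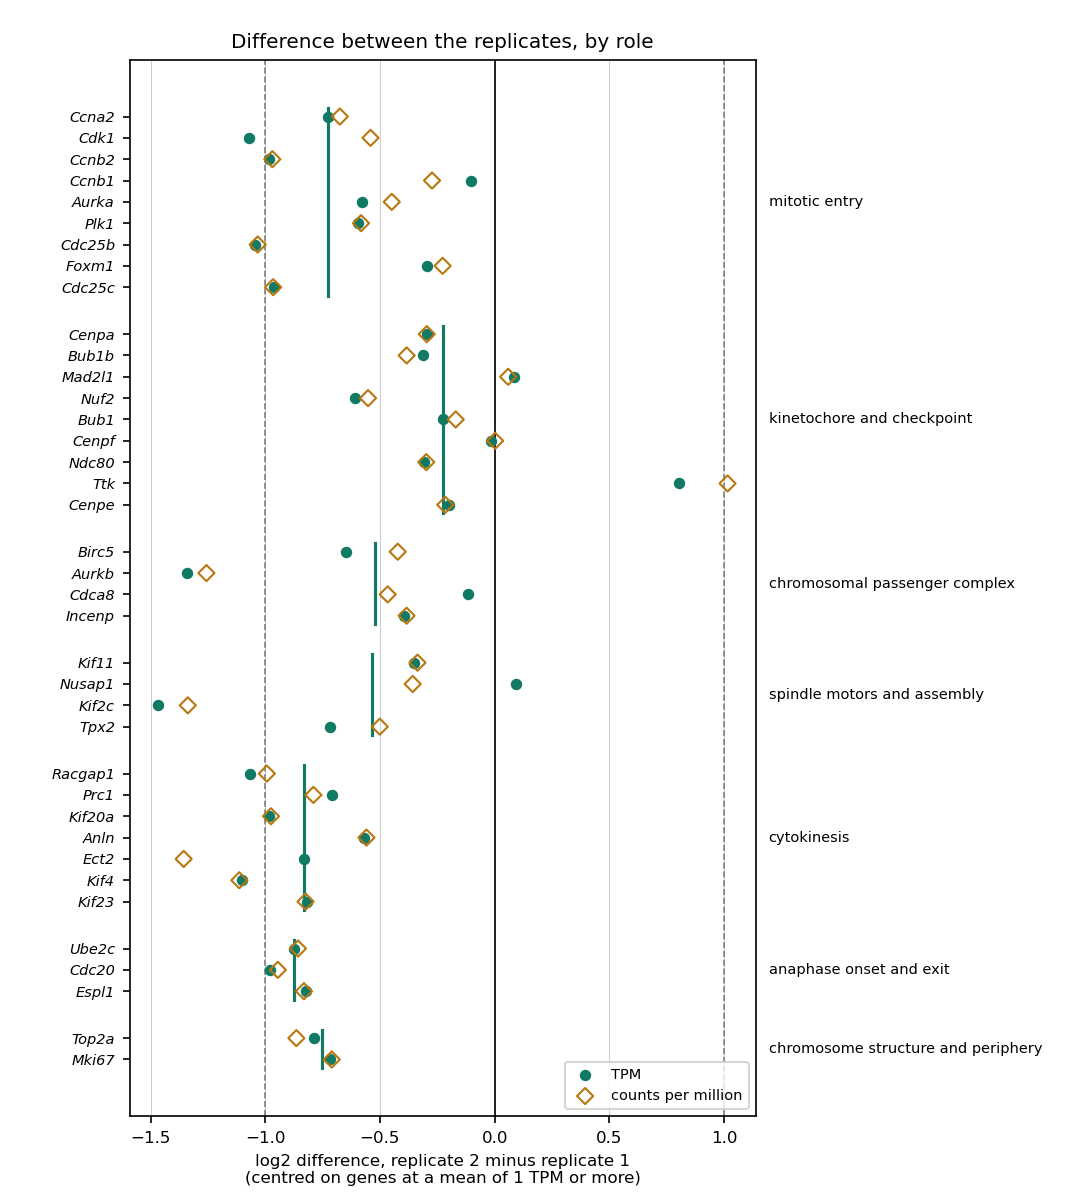
Log2 difference of each gene, replicate 2 over replicate 1, in TPM (filled) and in CPM (open diamonds, counts per library total), with a vertical bar at each role group's median in TPM and dashed lines at 2-fold. In both measures 35 of 38 genes lie below 0, and Ttk lies farthest above it.

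The intervals that the authors deposited around each TPM, whose level is not given in the sources used here, cover the uncertainty of assigning reads and not the spread between hearts. They were apart and lower in replicate 2 for 30 members, beside 35.6% of the 11594 genes, and apart and higher for 1 member, Ttk, beside 37.7%. Overlapping intervals were found for Ccnb1, Mad2l1, Cenpf, Cenpe, Bub1, Cdca8 and Nusap1.

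**Figure D4:**
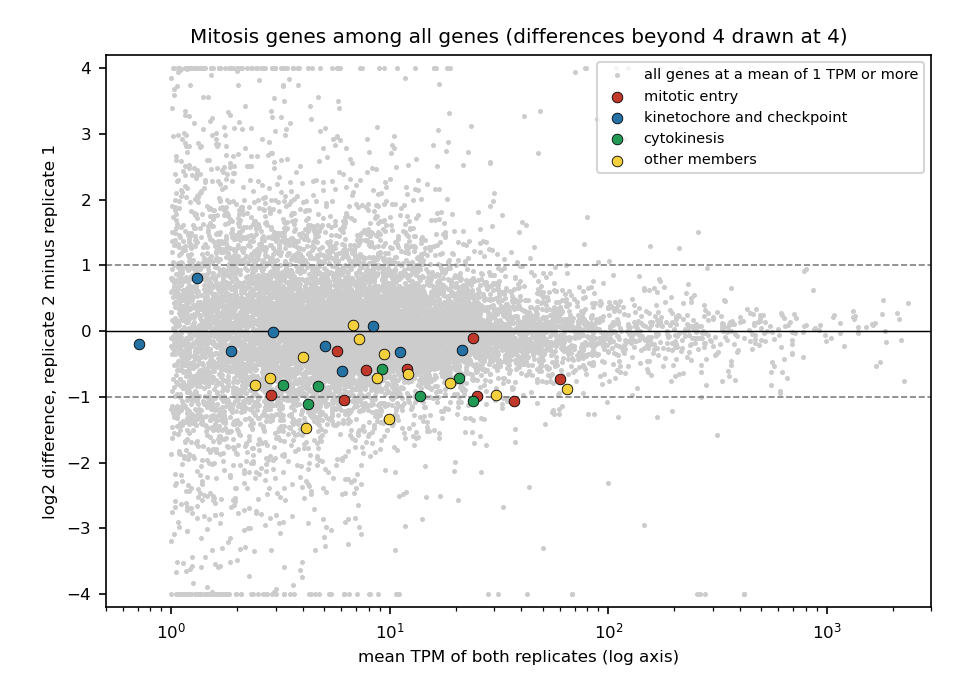
Log2 difference, replicate 2 over replicate 1, against mean TPM on a log axis for genes whose mean was at least 1 TPM (grey) and the members (coloured). The members form a band below 0 inside the grey cloud, between -1.47 and 0.81, and none lies beyond 2.15 in size.

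All 9 genes of mitotic entry had a lower level in replicate 2, with a median difference of -0.73 and summed levels of 137 TPM in replicate 2 and 224 TPM in replicate 1. Ccna2, whose product acts with cyclin-dependent kinases in S phase and G2, was at 45.5 TPM (8434 counts) in replicate 2 and 74.1 TPM (12781 counts) in replicate 1, a difference of -0.73 (ENSMUSG00000027715.5, GRCm38 chromosome 3, 36564865 to 36572150). Ccnb2 was at 17.0 TPM in replicate 2 and 33.2 TPM in replicate 1, a difference of -0.98. Ccnb1, the other B cyclin, was nearer to equal in TPM, at 23.4 and 24.7 TPM in replicates 2 and 1, a difference of -0.10. Its difference was -0.27 in CPM and -0.36 over coding transcripts alone. Its counts, 4836 in replicate 2 and 5547 in replicate 1, were not whole numbers, as happens where reads are shared with another gene. Its log2 ratio to Ccnb2 was 0.46 in replicate 2 and -0.42 in replicate 1. Cdk1 was at 24.05 TPM (2903 counts) in replicate 2 and 49.8 TPM (4012 counts) in replicate 1, and its difference was -1.07 in TPM and -0.54 in CPM (ENSMUSG00000019942.8, chromosome 10, 69335146 to 69352938). Its log2 ratio to Ccnb1 was 0.04 in replicate 2 and 1.01 in replicate 1. In TPM, Cdk1 was thus level with Ccnb1 in replicate 2 and above it in replicate 1, but the mean ratio turned to -0.60 in counts not divided by length. Over coding transcripts alone Cdk1 was at 20.4 TPM in replicate 2 and 27.6 TPM in replicate 1, and Ccnb1 at 18.5 TPM in replicate 2 and 23.9 TPM in replicate 1.

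Of the Cdk1-activating phosphatases, Cdc25b was at 4.05 TPM in replicate 2 and 8.32 TPM in replicate 1, a difference of -1.04. Cdc25c was at 1.92 and 3.78 TPM in replicates 2 and 1, a difference of -0.96. Cdc25b was above Cdc25c in both libraries, with log2 ratios of 1.04 in replicate 2 and 1.12 in replicate 1. Among the mitotic kinases, Aurka, which acts at centrosomes and spindle poles, was at 9.67 TPM in replicate 2 and 14.3 TPM in replicate 1 (difference -0.58). Plk1, polo-like kinase, was at 6.24 and 9.33 TPM in replicates 2 and 1 (difference -0.59). Both kinase genes were lower in replicate 2 by a similar amount. Foxm1, a transcription factor that activates genes of G2 and mitosis, had a smaller difference of -0.30, at 5.16 TPM in replicate 2 and 6.26 TPM in replicate 1.

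Of the role groups, the 9 kinetochore and checkpoint members lay closest to equal between the libraries. This did not extend to 33 other genes of that role, described below, whose median difference was -0.54. The 9 members had a median difference of -0.22, with 7 lower and 2 higher in replicate 2. Their summed level was 54.5 TPM in replicate 2 and 63.1 TPM in replicate 1, a ratio of 0.865. Cenpa, the histone H3 variant that marks centromeres, led the group with 19.4 TPM in replicate 2 and 23.4 TPM in replicate 1 (difference -0.29). Bub1b, the checkpoint protein BubR1, was at 9.96 and 12.2 TPM in replicates 2 and 1 (difference -0.31), and the checkpoint kinase gene Bub1 was at 4.68 and 5.40 TPM in replicates 2 and 1 (difference -0.22). The log2 ratio of Bub1 to Bub1b was -1.07 in replicate 2 and -1.16 in replicate 1, so Bub1b was the higher of the pair in each library. Mad2l1, which encodes the checkpoint inhibitor Mad2, was at 8.71 TPM in replicate 2 and 8.09 TPM in replicate 1 (difference 0.08). Its deposited interval was wide, 8.23 to 21.3 TPM in replicate 2 and 7.62 to 15.8 TPM in replicate 1. Cenpf, a kinetochore and nuclear matrix protein of G2 and mitosis, was at 2.93 and 2.92 TPM in replicates 2 and 1 (difference -0.02). The estimates for both genes were nearly the same in the 2 libraries.

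Nuf2 and Ndc80, subunits of the complex that binds microtubules at the kinetochore, were both lower in replicate 2. Nuf2 was at 4.81 TPM in replicate 2 and 7.27 TPM in replicate 1 (difference -0.61). Ndc80 was at 1.68 and 2.07 TPM in replicates 2 and 1 (difference -0.31). Nuf2 was the higher of the pair in both libraries, with log2 ratios of Ndc80 to Nuf2 of -1.46 in replicate 2 and -1.76 in replicate 1. Cenpe, a kinesin that helps align chromosomes, was at 0.66 TPM (549 counts) in replicate 2 and 0.76 TPM (606 counts) in replicate 1. Its low TPM rests on more counts than Ttk had, since TPM divides by length.

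Ttk, the checkpoint kinase Mps1, ran the other way. It was at 1.71 TPM (444 counts) in replicate 2 and 0.92 TPM (205 counts) in replicate 1, a difference of 0.81 in TPM and 1.01 in CPM, and it was the one member whose deposited intervals were apart with replicate 2 higher (ENSMUSG00000038379.11, chromosome 9, 83834689 to 83872389).

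The 4 genes of the chromosomal passenger complex, which corrects faulty attachments and later acts at the cleavage site, were all lower in replicate 2, with a median difference of -0.52. The size of the difference varied within the complex. The kinase gene Aurkb was at 5.64 TPM (799 counts) in replicate 2 and 14.2 TPM (1821 counts) in replicate 1, a difference of -1.34 (ENSMUSG00000020897.8, chromosome 11, 69045647 to 69051664). Birc5, survivin, was at 9.54 TPM in replicate 2 and 14.8 TPM in replicate 1 (difference -0.65). The scaffold gene Incenp was at 3.48 and 4.53 TPM in replicates 2 and 1 (difference -0.39). Cdca8, borealin, was at 6.95 and 7.42 TPM in replicates 2 and 1 (difference -0.12 in TPM, -0.47 in CPM). Aurka stood above Aurkb by a log2 ratio of 0.77 in replicate 2, but the pair were level in replicate 1, at 0.005.

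Among the 4 spindle genes, 3 were lower and 1 higher in replicate 2 in TPM, and the median difference was -0.53. Kif2c, a kinesin that takes microtubules apart at their ends, had the largest difference of the 38 members in TPM, -1.47, at 2.17 TPM (576 counts) in replicate 2 and 6.08 TPM (1392 counts) in replicate 1 (ENSMUSG00000028678.9, chromosome 4, 117159639 to 117182639). Kif11, the motor that slides spindle poles apart, was at 8.28 TPM in replicate 2 and 10.4 TPM in replicate 1 (difference -0.35). Tpx2, which activates Aurora A on the spindle, was at 2.14 and 3.53 TPM in replicates 2 and 1 (difference -0.72). Nusap1, a microtubule-bundling protein, was higher in replicate 2 in TPM and lower in counts: 7.08 TPM (1673 counts) in replicate 2 and 6.53 TPM (2036 counts) in replicate 1, with differences of 0.09 in TPM and -0.36 in CPM.

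All 7 cytokinesis genes were lower in replicate 2, with intervals apart for each, a median difference of -0.83 and summed levels of 56.6 TPM in replicate 2 and 103 TPM in replicate 1, a ratio of 0.550. Racgap1 and Kif23 encode the GTPase-activating subunit and the kinesin of centralspindlin, the complex that organises the midzone between the separating chromosomes. Racgap1 was at 15.7 TPM in replicate 2 and 32.4 TPM in replicate 1 (difference -1.07). Kif23 was at 2.33 and 4.12 TPM in replicates 2 and 1 (difference -0.82). Kif23 was far lower than Racgap1 in both libraries, with log2 ratios of -2.70 in replicate 2 and -2.94 in replicate 1, and of 9 pairs compared this was the one past 2.15 in both. Prc1, which bundles midzone microtubules, was at 15.8 TPM in replicate 2 and 25.5 TPM in replicate 1 (difference -0.71). Kif4, a kinesin that works with Prc1, was at 2.66 and 5.74 TPM in replicates 2 and 1 (difference -1.10). Kif20a, another midzone kinesin, was at 9.26 and 18.2 TPM in replicates 2 and 1 (difference -0.99). All of these midzone genes were lower in replicate 2 by 0.71 to 1.10 on the log2 scale. Ect2, the exchange factor that switches on RhoA at the cleavage furrow, was at 3.37 TPM in replicate 2 and 5.98 TPM in replicate 1 (difference -0.83). Anln, the furrow scaffold anillin, was at 7.48 and 10.98 TPM in replicates 2 and 1 (difference -0.57).

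In TPM the 3 genes of anaphase onset and exit had the highest median level of the role groups in each library. It was 20.7 TPM in replicate 2 and 40.3 TPM in replicate 1, and their median difference was -0.88. In CPM the 2 genes of chromosome structure and periphery had the highest median, 82.8 in replicate 2 and 142 in replicate 1. The median CPM of anaphase onset and exit was 46.9 in replicate 2 and 85.3 in replicate 1. Ube2c was at 46.1 TPM (3468 counts) in replicate 2 and 83.4 TPM (5968 counts) in replicate 1, a difference of -0.88 (ENSMUSG00000001403.9, chromosome 2, 164769898 to 164778822). Cdc20 was at 20.7 TPM in replicate 2 and 40.3 TPM in replicate 1, a difference of -0.98, and its log2 ratio to Ube2c was -1.15 in replicate 2 and -1.05 in replicate 1 in TPM (mean 0.04 in counts not divided by length). Espl1, separase, the protease that cuts cohesin, was at 1.74 and 3.10 TPM in replicates 2 and 1 (difference -0.82). The 2 genes of chromosome structure and periphery had similar differences. Top2a, the topoisomerase that untangles sister chromatids, was at 13.9 TPM in replicate 2 and 23.7 TPM in replicate 1 (difference -0.79). Mki67, the Ki-67 antigen that coats mitotic chromosomes and marks cycling cells, was at 6.67 and 10.9 TPM in replicates 2 and 1 (difference -0.72).

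TPM divides by an effective length that depends on the mix of transcripts estimated for a gene. This length was within 10% between the libraries for 29 members and beyond it for 9 (Ccnb1, Cdk1, Ttk, Birc5, Cdca8, Kif2c, Tpx2, Nusap1 and Ect2). The 11 members with a single annotated transcript carry no such mix, and all 11 were lower in replicate 2, with a median difference of -0.59 and a range of -0.98 to -0.20. Of the 27 members with 2 or more transcripts, the leading transcript differed between the libraries in 5 (Ttk, Tpx2, Nusap1, Ect2 and Kif20a), beside 33.8% of 8184 genes with several transcripts. In 11 members, transcripts not annotated as protein-coding held at least 20% of the gene's TPM in either library, beside 38.3% of those genes.

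**Figure D5:**
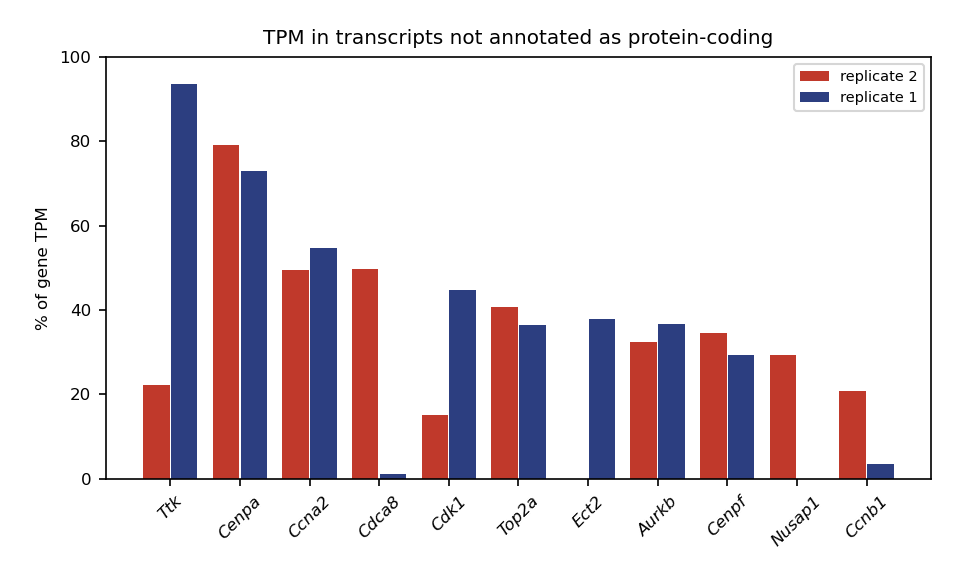
Percent of each gene's TPM in transcripts not annotated as protein-coding, in replicate 2 and in replicate 1, for the 11 members at 20% or more in either. Cenpa, Ccna2, Top2a, Aurkb and Cenpf have similar shares in both libraries, while Ttk, Cdca8, Cdk1, Ect2, Nusap1 and Ccnb1 do not.

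The size of the Cdk1 difference depended on this mix. Its coding transcript of 1253 nucleotides held 69.2% of its TPM in replicate 2 and 47.2% in replicate 1, whereas the intron-retaining one of 475 nucleotides held 0% in replicate 2 and 37.7% (369 counts) in replicate 1. Over coding transcripts alone its difference was -0.43. For Cdca8 the uneven share was in replicate 2, where noncoding transcripts held 49.8% against 1.08% in replicate 1, and its coding difference was -1.05. Nusap1 had 29.4% noncoding TPM in replicate 2 and 0% in replicate 1, and a coding difference of -0.37, so its sign in TPM turned. Ect2 had 0% and 37.8% noncoding TPM in replicates 2 and 1, and its coding difference was -0.14.

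The transcripts of Ttk and Tpx2 also differed between the libraries. The coding Ttk-201 held 77.55% of Ttk TPM (380 counts) in replicate 2 and 6.02% (15.1 counts) in replicate 1. The intron-retaining Ttk-204 held 0% in replicate 2 and 59.6% (140 counts) in replicate 1. Over coding transcripts alone Ttk was at 1.33 TPM in replicate 2 and 0.06 TPM in replicate 1, a difference of 3.16. The replicate 1 value is below the 0.1 TPM added, so the size of that difference depends largely on this addition. Tpx2 had a different leading coding form in each library: the one of 4161 nucleotides held 100% in replicate 2 and 17.0% in replicate 1, and the one of 3483 nucleotides 0% in replicate 2 and 83.0% in replicate 1. Noncoding shares of Cenpa and Ccna2 were closer between the libraries. Noncoding transcripts held 79.1% of Cenpa TPM in replicate 2 and 72.9% in replicate 1, mostly in a transcript of 1151 nucleotides annotated for nonsense-mediated decay, and 49.6% and 54.6% of Ccna2 TPM in replicates 2 and 1. Such shares are estimates from reads that transcripts have in common, and a total RNA library also holds RNA that is not fully spliced.

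Set beside the expression values, the 20 members with both motifs had a median difference of -0.75 between replicates, the 3 with a CHR alone -0.57, the 4 with a CCAAT box alone -0.21 and the 4 with neither -0.26. The ranges overlapped, from -1.10 to 0.81 with both motifs and from -0.65 to 0.09 with neither. They ran from -1.47 to -0.31 with a CHR alone and from -1.04 to -0.10 with a CCAAT box alone. Kinetochore and checkpoint genes, the role group closest to equal, were 2 of the 4 with a CCAAT box alone and 2 of the 4 with neither. They were 4 of the 20 with both motifs and 1 of the 3 with a CHR alone, so motif and role were not separated. A match of letters is a description of the sequence, not a bound site, and a window without one says nothing about other positions.

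Other genes of mitosis did not all share the size of the difference. Over 6 lists of 108 such genes, 86 were detected in both libraries and the median difference was -0.25. In replicate 2, 69 were lower and 39 higher. At least 2-fold lower were 25, beside 8.90% of the 11594 genes, and at least 2-fold higher were 6, beside 10.1%. Unlike the 11594 genes, the 108 were not held to a mean of 1 TPM, and 12 of them had a lower mean. The 33 other kinetochore and checkpoint genes had a median of -0.54 in TPM. In that measure 15 were at least 2-fold lower, beside 8.90% of the 11594 genes, and 2 higher, beside 10.1%. Their median in CPM was -1.02, with 17 at least 2-fold lower, beside 6.69%, and 1 higher, beside 7.83%. Of the 33, only 20 were detected in both libraries, and 7 had a mean under 1 TPM. The 3 highest of the 33 genes were nearly level or higher in replicate 2. Pmf1, of the Mis12 complex, was at 30.3 TPM in replicate 2 and 20.8 TPM in replicate 1. Hjurp, the Cenpa chaperone, was at 25.2 and 25.4 TPM in replicates 2 and 1, and the checkpoint gene Bub3 was at 22.02 and 21.48 TPM in replicates 2 and 1. Cenpk, of the inner kinetochore, was below 0.1 TPM in both. Spc24 and Spc25, the partners of Ndc80 and Nuf2 and chosen after their values were seen, were at 5.50 and 5.61 TPM in replicate 2 and at 12.7 and 12.1 TPM in replicate 1. All 4 subunit genes of that complex were lower in replicate 2, as were 23 of the 33 other kinetochore and checkpoint genes, with 10 higher. Since Spc24 and Spc25 were chosen with their values known, no conclusion about the complex is drawn.

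The 18 other spindle genes had a median difference of -0.29, with 13 lower and 5 higher. Fam83d, which recruits casein kinase to the spindle, was at 9.95 TPM in replicate 2 and 19.7 TPM in replicate 1, the gamma-tubulin gene Tubg1 at 12.5 and 14.3 TPM in replicates 2 and 1, and Ckap5, a microtubule polymerase, at 10.4 and 15.1 TPM in replicates 2 and 1. Of 16 other mitotic entry regulators, 9 were lower and 7 higher (median -0.14). Cks2 and Cks1b, small subunits that bind Cdk1, were at 60.2 and 22.1 TPM in replicate 2 and at 51.8 and 26.1 TPM in replicate 1, and Wee1, the kinase that inhibits Cdk1, was at 7.80 TPM in replicate 2 and 5.46 TPM in replicate 1. So Cks2 and Wee1 were higher in replicate 2, while Cks1b, Cdk1, Ccna2 and Ccnb2 were lower. Ccnb1 was near to equal in TPM, with a difference of -0.10 and overlapping intervals, but its difference was -0.27 in CPM and -0.36 over coding transcripts alone.

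The remaining lists had medians between -0.48 and -0.03. The 10 other cytokinesis genes had a median of -0.03, with Rhoa, the furrow GTPase, at 44.2 TPM in replicate 2 and 54.0 TPM in replicate 1. The septin gene Sept7 was at 26.6 and 24.7 TPM in replicates 2 and 1 and Chmp4b, of the membrane-cutting machinery, at 21.3 and 19.7 TPM in replicates 2 and 1. The 23 genes of the anaphase-promoting complex and cohesion had a median of -0.13, led by Ube2s, which extends ubiquitin chains, at 147 TPM in replicate 2 and 158 TPM in replicate 1. The core subunit gene Anapc5 was at 78.8 and 83.5 TPM in replicates 2 and 1. Cdc23, another subunit gene, was at 27.2 and 17.7 TPM in replicates 2 and 1, a difference of 0.59 in TPM but 0.11 in CPM. The 8 condensin genes had a median of -0.48 in TPM and -0.07 in CPM. The highest was Ncaph2 at 35.8 TPM in replicate 2 and 21.8 TPM in replicate 1, followed by Ncapd2 at 22.5 and 25.5 TPM in replicates 2 and 1. Smc4 was at 8.66 TPM (3305 counts) in replicate 2 and 13.7 TPM (3249 counts) in replicate 1, a difference of -0.67 in TPM but -0.05 in CPM. The 23 replication genes, which act before mitosis, had a median of -0.11 with 12 lower and 11 higher. Pcna, the sliding clamp, was at 37.6 TPM in replicate 2 and 43.6 TPM in replicate 1, the thymidine kinase gene Tk1 at 27.1 and 30.55 TPM in replicates 2 and 1 and Rrm1, of ribonucleotide reductase, at 15.3 and 25.6 TPM in replicates 2 and 1.

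Several marker lists also differed between the libraries. The lymphocyte and thymus markers were lower in replicate 2 with the mitotic genes, led by Rag1 at 0.01 TPM (8 counts) in replicate 2 and 3.20 TPM (2138 counts) in replicate 1. The smooth muscle markers were higher in replicate 2, with a median difference of 0.96 and a range of 0.15 to 4.48. The highest in level was Acta2, at 395 TPM in replicate 2 and 280.0 TPM in replicate 1. Urothelial markers were also higher in replicate 2, where Upk3a was at 32.6 and 0.07 TPM in replicates 2 and 1. Red cell genes were also present: the 11 erythroid markers summed to 3745 TPM in replicate 2 and 3122 TPM in replicate 1, with Hba-a2 highest and the transcription factor gene Klf1 at 0 counts in both. The 6 liver markers summed to 26.9 and 24.5 TPM in replicates 2 and 1, but 5 of them were lower in replicate 2 and 1 higher. Their median difference was -0.63. The 8 macrophage markers, led by C1qb, summed to 59.2 and 52.2 TPM in replicates 2 and 1. The 6 epicardial markers, led by Upk3b, summed to 58.6 and 46.5 TPM in replicates 2 and 1. The part of these cell types in the difference of the mitotic genes was not tested.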

How the data were processed

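Total RNA of newborn mouse hearts was measured in 2 libraries. Assembly mm10 and annotation GENCODE M4 are named in the deposited notes, and the column names are those of RSEM, while no label or header names the aligner or the versions. The deposited expected counts are estimated fragment numbers, not normalized between libraries. The authors' TPM values divide them by effective length and scale every table to the same total, and their FPKM values scale by length and library total. Per the file headers, each transcript also has its percent of the gene total. The bounds of the TPM interval, deposited on the scale of the signal, have no stated level.

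Versions were stripped from identifiers to look up names, coordinates and transcript classes in GENCODE M21 (GRCm38), which held 42462 of the genes and lacked 884. Of 69691 entries, 96 were spike-ins. Differences used a pseudocount of 0.1 TPM. Detection was 1 TPM in both libraries. CPM used gene counts of 73615802 in replicate 2 and 69946215 in replicate 1. Expected counts, rounded to whole numbers, gave TMM factors (edgeR 4.0.16) and size factors (DESeq2 1.42.0) in R 4.3.3, for alternatives alone. The calculation of differences was tested on simulated counts. These had planted changes larger than those of the members and the same effective length in both libraries. They held counting error alone, so they do not bear on the spread between hearts or on shifts in transcript mix. Other tools were matplotlib 3.10.9, scipy 1.17.1, pandas 2.3.3 and numpy 2.4.6 under Python 3.11.15.

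All 38 members are named. Of each pathway list, the 3 genes of highest mean TPM and those under 0.1 TPM in both libraries are named, and of each cell list the highest gene and defining genes at 0. Spc24 and Spc25 fell outside this rule. The value of 1 marker gene is not reported here. The members and lists were chosen with earlier results of these data known. No p-value was computed, since 1 group of 2 libraries allows no test.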

Additional observations from a re-analysis of the deposited data

How the results depend on the processing

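No paired analysis was possible because the design has 1 group. The median difference of the 38 genes stayed between -0.95 and -0.55 over 12 settings (pseudocount, filter, centring, scaling, unit and estimate, and coding transcripts alone, a setting chosen after seeing the data), and all 84 medians of role groups were negative. Centring on spike-ins moved the median of all genes by -0.27 log2 and set the kinetochore median at -0.49, since it subtracts a larger centre. It gave 15 members at least 2-fold lower in replicate 2, with no share of all genes counted beside them. A pseudocount of 1 TPM gave 4 such members, again with no share of all genes counted. Members at least 2-fold higher numbered 1 in counts not divided by length, with TMM factors, with DESeq2 size factors and over coding transcripts alone. In counts not divided by length the share of all genes was 7.83%, and for the other settings it was not counted. A threshold of 5 TPM left 23 members detected, with no share of protein-coding genes counted at that level. In CPM, which favour long genes, the median levels were 28.4 for mitotic entry, 17.2 for kinetochore and checkpoint and 15.5 for the chromosomal passenger complex. They were 21.04 for spindle genes, 60.2 for cytokinesis, 66.1 for anaphase onset and exit and 112 for chromosome structure. Chromosome structure was thus highest in CPM, whereas anaphase onset and exit was highest in TPM. Of 36 ratios of gene pairs under alternatives, each set against the 95th percentile on its own scale, 1 changed side: Cdc25b over Cdc25c was 1.81 in counts, where the limit is 1.76 and not 2.15. The sign turned in 3 pairs: Cdc20 over Ube2c (0.04 in counts, -1.10 in TPM), Cdk1 over Ccnb1 (-0.60 in counts, 0.52 in TPM) and Ccnb1 over Ccnb2 (0.46 in replicate 2 alone, -0.42 in replicate 1 alone, mean 0.02). With 1 library on each side, depth sets counting error but not the spread between hearts.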
